A study of Mus musculus with 4 samples.

Results

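The urea cycle and nitrogen genes of mouse liver described here are Nags, Cps1, Otc, Ass1, Asl, Arg1, Glul, Gls2 and Tat. They were chosen by gene name, from the non-control probes of a whole-genome array, and 14 probes carry these 9 names, among 56605 probes for 37074 gene names. The liver disposes of ammonia from amino acid breakdown in the urea cycle, which begins in the mitochondria and ends in the cytosol of hepatocytes near the portal vein. Ammonia that escapes is bound into glutamine by a ring of hepatocytes around the central vein, and glutaminase in the periportal cells releases it again. The amino groups that feed the cycle come largely from transamination, which Tat carries out for tyrosine.

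The arrays compared livers of wild-type C57BL/6 mice, 6 weeks old by the labels, after i.p. injection of aristolochic acid I (AAI), a plant nephrotoxin, or of its corn oil vehicle. Females received AAI at 5 mg/kg/day and males at 2 mg/kg/day, on 5 days a week for 3 weeks, and each sex had its own corn oil-treated controls. The dose was lower in males, so that sex and dose cannot be told apart in the AAI comparisons. RNA from 5 mice was pooled in equal amounts for each of the 4 groups and hybridized to 1 array per group. There were therefore no replicates, no test was possible, and all differences below are between single arrays of pooled RNA.

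Signals are log2 values after quantile normalization over the 4 arrays, a log2 ratio is the difference between 2 arrays, and a gene is represented by its brightest probe unless a further probe is named. As technical measures of error, the median SD of the log2 ratios between probes of 1 gene was 0.25 in females, 0.24 in males and 0.23 between the corn oil-treated sexes, and the error estimate of the scanner software corresponded to 0.20 for the ratio of Ass1 in each comparison. All 14 probes were well above background on all 4 arrays and none was saturated. The median processed intensity of all spots lay between 110 and 129 on the arrays, and 74.7% to 81.5% of all probes were well above background. The trend correction of the scanner software had not been applied on the array of AAI-treated females.

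The labelled tissue was checked with marker genes. All 15 hepatocyte markers were above background on every array, and the log2 of their summed signal lay between 21.88 and 22.07. Markers of other tissues moved with AAI. The log2 summed signal of 14 skeletal muscle markers was 10.65 with corn oil and 15.60 with AAI in females, and 12.64 and 18.59 in the males, and all 14 were at least 2-fold higher with AAI in each sex. Of 12 adrenal markers, 9 were at least 2-fold higher and 1, Mc2r, lower with AAI in males, and none passed 2-fold in females. Their log2 summed signal was 13.19 with corn oil and 16.06 with AAI in males, against 12.57 and 12.79 in females. Of 10 fat markers, 6 were at least 2-fold higher and 2 lower with AAI in males, with summed signals of 16.16 and 16.65, and 3 were higher in females, with 14.93 and 15.07. Of 9 macrophage and Kupffer cell markers, 7 were at least 2-fold lower with AAI in females, with summed signals of 17.17 and 16.01, and 2 in males, with 16.94 and 16.35. Myh1 of muscle, Ucp1 and Adipoq of fat, and Chgb of the adrenal list were not above background in corn oil-treated females, and Ucp1 was not in AAI-treated females either. The log2 summed signal of 10 kidney tubule markers lay between 11.57 and 11.95 and that of 10 exocrine pancreas markers between 13.54 and 13.98. Of 9 kidney tubule markers measured in males, 2 were at least 2-fold lower with AAI and none higher, and none passed 2-fold in females. No pancreas marker passed 2-fold with AAI. Kap of the kidney list was above background only in AAI-treated females. The part of these markers in the values below was not tested. In such bulk RNA, fewer cells of a type and less RNA per cell cannot be told apart.

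The probe sequences of Ass1, Otc and Glul are given as their first 30 letters of 60, as the array files list them, with no letter marked. Ass1 has 1 probe, Otc has 2 and Glul has 3, and the probes of a gene share no run of 15 letters, so that they read different stretches of the transcript.
Ass1, NM_007494, chromosome 2, 31376068 to 31376127: cccccacagcttttgttccctggtccccta
Otc brightest, NM_008769, chromosome X, 9897267 to 9897326: taaacactctcttcaatttacaacctctga
Otc further, XM_011247449, chromosome X, 9893244 to 9893303: acagtgagtactttccaacaaatctactcc
Glul brightest, NM_008131, chromosome 1, 155756765 to 155756824: cgcttataaatcaacctaacatttataaga
Glul further, NM_008131, chromosome 1, 155751765 to 155751824: ttccgcaaagaccccaacaagctggtgcta
Glul further, NM_008131, chromosome 1, 155755109 to 155755168: tccaacatcaacgacttttctgccggtgtt
All probe coordinates are on mouse build mm9, as the array files give them, and the exon or untranslated region they fall in was not analysed here.

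No member reached a 2-fold difference between AAI and corn oil in either sex. Over all genes tested, 4.46% passed 2-fold in females (1412 of 31682), 1.37% higher and 3.09% lower, and 8.09% in males (2472 of 30539), 3.51% higher and 4.59% lower. At 1.5-fold, 2 of 9 members passed in females, against 17.8% of all genes. These were Cps1, higher as were 7.81% of all genes, and Glul, lower as were 9.95%. In males 3 members passed at 1.5-fold, against 20.9% of all genes. These were Ass1, higher as were 9.9%, and Otc and Glul, lower as were 11%. The median log2 ratio of the 6 cycle enzymes was 0.11 in females and 0.31 in males, beside 0.04 and 0.02 over all genes measured above background with and without AAI, and that of the females was -0.16 when the arrays were centred on hepatocyte markers. The only member past 2-fold was Ass1 between the corn oil-treated sexes, lower in males, where 1.86% of all genes were at least 2-fold lower and 3.83% higher in males, 5.69% in either direction.

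**Figure D1:**
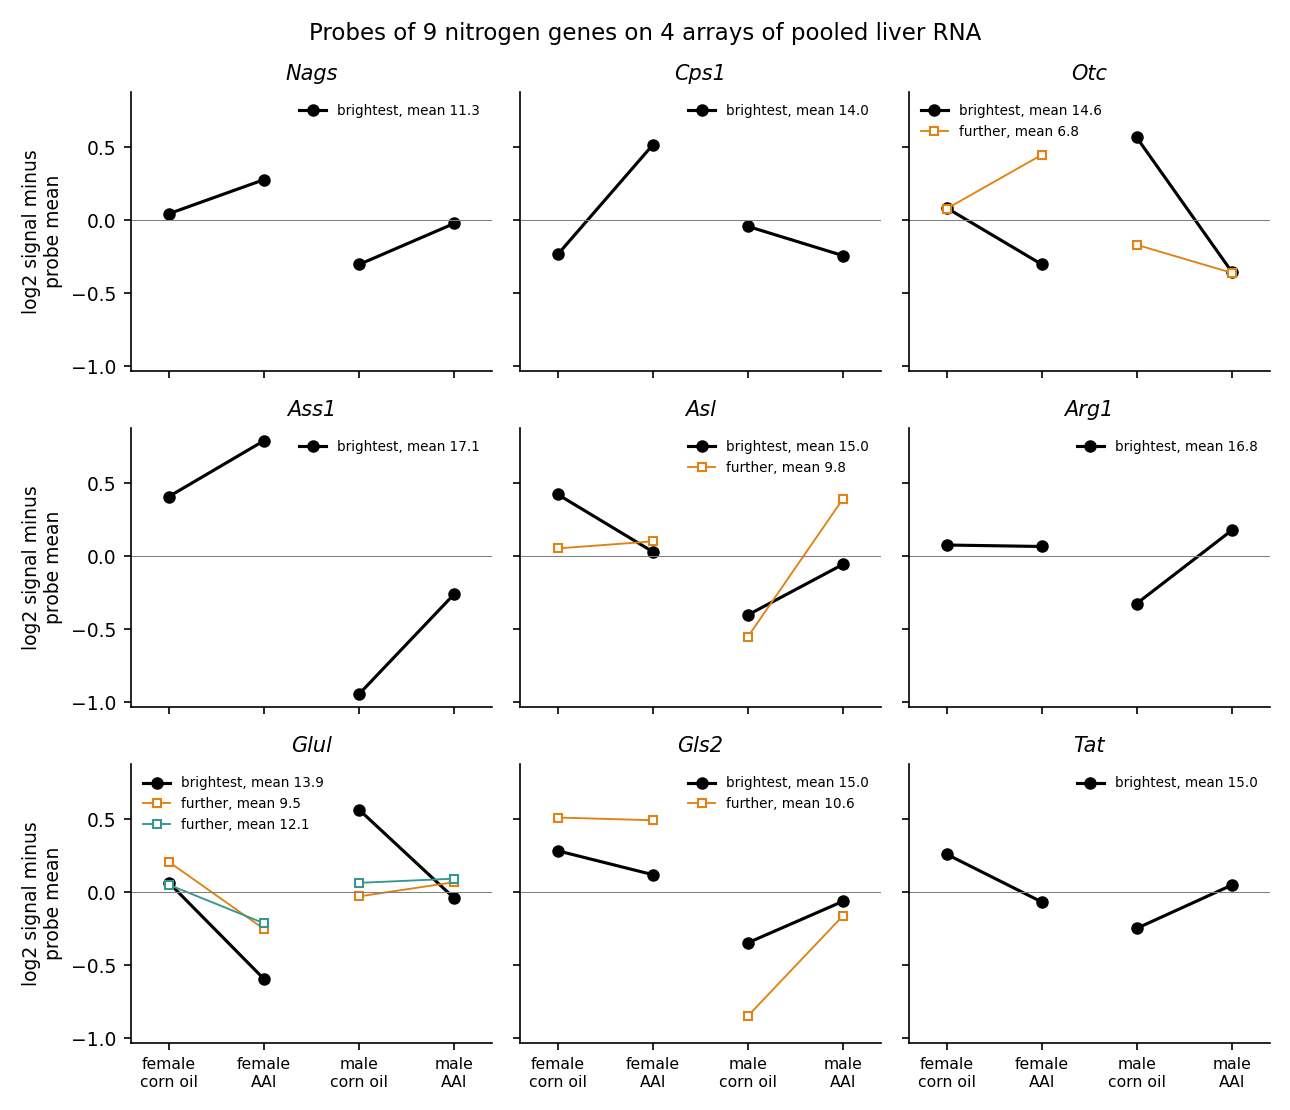
Log2 signal of every probe of the 9 genes on the 4 arrays, minus the mean of that probe over the arrays. Filled circles are the brightest probe of a gene, open squares are further probes, lines join the arrays of 1 sex, the legend gives the mean log2 signal of each probe, and each point is 1 array of RNA pooled from 5 mice. Ass1 spans 1.73 on the log2 scale, with both female arrays above both male arrays, and the probes of Otc and Glul part from each other.

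The cycle is switched on by N-acetylglutamate, which Nags (NM_145829, chromosome 11, 102009515 to 102009574) makes and which the enzyme of the entry step requires. The Nags signal was 11.36 (corn oil) and 11.59 (AAI) in females, and 11.01 (corn oil) and 11.29 (AAI) in males. It was slightly higher with AAI in both sexes, by 0.23 (log2 ratio) in females, within the SD between probes, and by 0.28 in males. The female ratio was -0.04 when centred on hepatocyte markers, and the male ratio stayed between 0.16 and 0.36 over 8 alternatives.

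Cps1 (NM_001080809, chromosome 1, 67276029 to 67276088) encodes carbamoyl phosphate synthetase, which joins ammonia and bicarbonate in the mitochondria and commits nitrogen to the cycle. Its signal was 13.75 (corn oil) and 14.50 (AAI) in females, and 13.94 (corn oil) and 13.74 (AAI) in males. The array of AAI-treated females stood alone, above the other 3, which lay within 0.20. The female log2 ratio of 0.75, a 1.68-fold higher signal, was the largest increase of a member in females, and 3.27% of genes above background on both arrays were as far or farther in this direction. It lay between 0.48 and 0.82 over the alternatives. The male ratio was -0.20, within the SD between probes, and the single Cps1 probe leaves the female value without a check by another probe.

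Otc (NM_008769) encodes ornithine transcarbamylase, the X-linked enzyme that forms citrulline from carbamoyl phosphate and ornithine. The signal of its brightest probe was 14.71 (corn oil) and 14.32 (AAI) in females, and 15.19 (corn oil) and 14.27 (AAI) in males. Both AAI arrays lay below both corn oil arrays. The male log2 ratio was -0.92, a 1.89-fold lower signal and the largest AAI difference of a member by its brightest probe. Of genes above background on both male arrays, 4.94% were as far or farther down. The female ratio was -0.39. The further Otc probe was dim, with 6.83 and 7.20 in corn oil- and AAI-treated females and 6.58 and 6.39 in the males. Its log2 ratio was 0.37 in females, opposite to that of the brightest probe, and -0.19 in males. Averaging the probes left -0.01 in females and -0.56 in males, and the male value of the further probe was within the SD between probes.

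Ass1 (NM_007494) encodes argininosuccinate synthetase, which adds the second nitrogen of urea by joining citrulline and aspartate. Its signal was 17.51 (corn oil) and 17.89 (AAI) in females, and 16.15 (corn oil) and 16.84 (AAI) in males. Both female arrays lay above both male arrays, and within each sex the AAI array was the higher. With AAI the log2 ratio reached 0.38 (females) and 0.68 (males), a 1.30-fold and a 1.61-fold higher signal. Over the alternatives the female ratio lay between 0.11 and 0.42 and the male ratio between 0.65 and 0.997, just short of 2-fold. In males, 6.58% of genes above background on both arrays were as far or farther up.

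Asl (NM_133768, chromosome 5, 130487513 to 130487736) encodes argininosuccinate lyase, which splits argininosuccinate into arginine and fumarate. The 60 letters of its brightest probe are spread over 224 bases of the genome. The signal of that probe was 15.42 (corn oil) and 15.02 (AAI) in females, and 14.59 (corn oil) and 14.94 (AAI) in males. The sexes moved in opposite directions with AAI, with -0.39 (log2 ratio) in females and 0.35 in males. The further probe, annotated to an Ensembl transcript at chromosome 5, 130498273 to 130498332, had 9.82 and 9.87 in corn oil- and AAI-treated females and 9.22 and 10.16 in the males. Its ratio was 0.05 in females and 0.94 in males, so that a higher signal in males was measured by both probes.

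Arg1 (NM_007482, chromosome 10, 24636194 to 24636253) encodes the arginase of the liver, which releases urea and returns ornithine to the cycle. Its signal was 16.83 (corn oil) and 16.82 (AAI) in females, and 16.43 (corn oil) and 16.93 (AAI) in males. The female arrays differed by a log2 ratio of -0.01, whose sign turned under 3 of the 8 alternatives. The male ratio was 0.50, a 1.42-fold higher signal, and lay between 0.47 and 0.76 over the alternatives. Arg2 (NM_009705), the mitochondrial arginase of other tissues, had 6.02 and 4.72 in corn oil- and AAI-treated females and 4.82 and 4.75 in the males, the AAI-treated males not above background. Its female ratio of -1.31 was -0.39 with the normexp background and -1.58 when centred on hepatocyte markers.

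**Figure D2:**
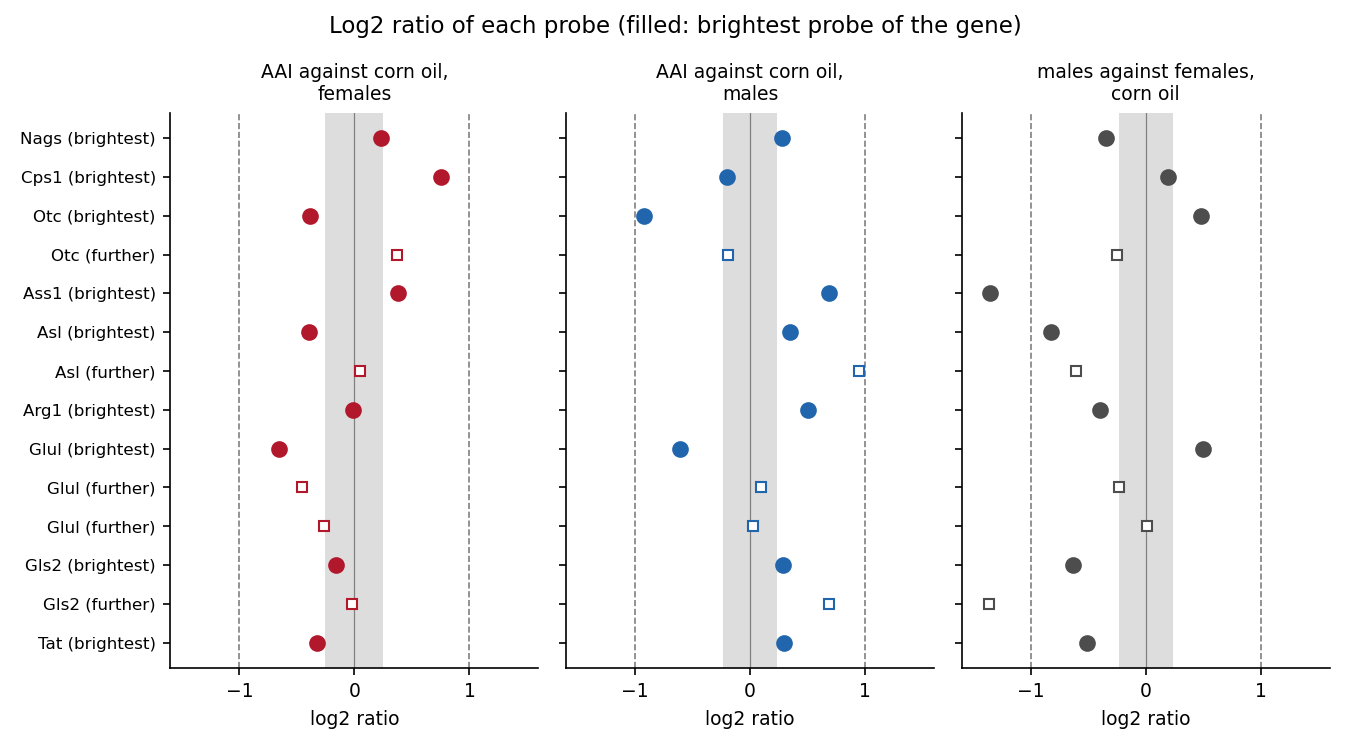
Log2 ratio of each of the 14 probes in 3 comparisons: AAI over corn oil in females, AAI over corn oil in males, and males over females among corn oil-treated mice. Filled circles are the brightest probe of a gene and open squares further probes, the grey band is plus and minus the median SD between probes of a gene, dashed lines mark 2-fold, and each ratio is between 2 single arrays. The filled points stay inside the dashed lines in the AAI panels, with Otc in males at -0.92 the nearest, and the Ass1 point at -1.35 and the further Gls2 probe at -1.36 lie outside in the panel of the sexes.

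Glutamine synthetase, encoded by Glul, binds ammonia into glutamine in the hepatocytes around the central vein. The brightest Glul probe (NM_008131) had 13.93 (corn oil) and 13.27 (AAI) in females, and 14.43 (corn oil) and 13.83 (AAI) in males. It was lower with AAI by nearly the same amount in both sexes, with log2 ratios of -0.66 in females and -0.61 in males, a 1.58-fold and a 1.52-fold lower signal. In females the 2 further probes were lower too. The probe at 155751765 had 9.76 in corn oil- and 9.30 in AAI-treated females, a ratio of -0.46, and that at 155755109 had 12.19 and 11.93, a ratio of -0.26. In males they were not lower, with 9.52 and 9.62 for the former, a ratio of 0.10, and 12.20 and 12.23 for the latter, a ratio of 0.03. The lower Glul signal in AAI-treated males was therefore measured by 1 of 3 probes, and averaging the probes gave -0.16 in males and -0.46 in females.

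Gls2 (NM_001033264, chromosome 10, 127646830 to 127646889) encodes the glutaminase of the liver, which frees ammonia from glutamine beside the entry of the cycle. Its signal was 15.29 (corn oil) and 15.13 (AAI) in females, and 14.66 (corn oil) and 14.95 (AAI) in males. This is a log2 ratio of -0.16 in females, within the SD between probes, and of 0.28 in males. The further probe (NM_001285779) had 11.14 and 11.12 in corn oil- and AAI-treated females and 9.78 and 10.47 in the males. Its ratios were -0.02 and 0.69, in the same directions as those of the brightest probe.

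Tat (NM_146214, chromosome 8, 112523207 to 112523266) encodes tyrosine aminotransferase, which starts tyrosine breakdown and is induced by glucocorticoids and glucagon in liver. Its signal was 15.31 (corn oil) and 14.98 (AAI) in females, and 14.80 (corn oil) and 15.10 (AAI) in males. The log2 ratio was -0.33 in females and 0.30 in males, so that the sexes moved in opposite directions, each beyond the SD between probes. Across the members, 4 of 9 had the same direction with AAI in both sexes, and for 3 of these, Otc, Ass1 and Glul, both ratios were beyond that SD by the brightest probe. With the mean of the probes, Otc in females at -0.01 and Glul in males at -0.16 were within it, which leaves Ass1, a gene with 1 probe. When centred on hepatocyte markers, Ass1 in females was at 0.11, within that SD as well.

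Without AAI, Ass1 was the only member past 2-fold between the sexes. Markers of other tissues differed between these arrays too, with 10 of 14 skeletal muscle, 6 of 10 fat and 7 of 12 adrenal markers at least 2-fold higher in males and none lower, and their part was not tested. The Ass1 signal of 16.15 in corn oil-treated males against 17.51 in corn oil-treated females is a log2 ratio of -1.35, a 2.55-fold lower signal in males. Of genes above background on both arrays, 0.587% were as far or farther down, and the ratio lay between -1.71 and -1.15 over the alternatives. Asl followed with -0.83 and Gls2 with -0.63, and their further probes gave -0.61 and -1.36 in the same direction. Tat was at -0.51, Arg1 at -0.40 and Nags at -0.35, all lower in males. Otc at 0.48 and Glul at 0.50 were higher in males by their brightest probes, while the further Otc probe gave -0.25 and the further Glul probes -0.24 and 0.01. Cps1 was at 0.19, within the SD between probes, and at -0.03 with 75th percentile scaling. At 1.5-fold, 3 of 9 members passed, all lower in males, against 7.95% of all genes in that direction, 10% in the other and 18% in either. This comparison shares the array of corn oil-treated males with the AAI comparison in males and that of corn oil-treated females with the AAI comparison in females. A value off on 1 of these arrays would move both ratios that use it, and no agreement between them is drawn on.

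The patterns over the 4 arrays that lay nearest to the 2 members spanning at least 1 on the log2 scale were taken among 28234 genes above background on all arrays, by the root mean square distance between centred log2 signals. For Ass1 these were Cyp2c40, a cytochrome P450 gene, at 0.06, Acy1, encoding aminoacylase, at 0.10, and a RIKEN cDNA transcript at 0.10. The Cyp2c40 signal was 15.32 and 15.68 in corn oil- and AAI-treated females and 14.02 and 14.54 in the males. For Glul they were Ncaph of the condensin complex at 0.03, Lpin2, a phosphatidate phosphatase gene, at 0.04, and H2-M1, an MHC class I gene, at 0.04. With only 4 arrays such distances describe the arrays, and nothing is drawn from them about these genes.

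The region before the gene start is taken from RefSeq's promoter table for build GRCm38.p6, which holds 5 of the 9 members. Shown are the 3 of these 5 with the largest differences by the brightest probe. Capitals mark matches, on either strand, to the TATA box TATAAA, the CCAAT box, the E-box CACGTG, the GC box GGGCGG, the C/EBP motif TTGCNNAA, where N is any base, or the glucocorticoid receptor motif TGTTCT. The printed windows hold the 250 bases before the start for Ass1 and Glul, and a shorter stretch of 175 bases for Otc.
Ass1, chr2:31470020-31470269, plus strand: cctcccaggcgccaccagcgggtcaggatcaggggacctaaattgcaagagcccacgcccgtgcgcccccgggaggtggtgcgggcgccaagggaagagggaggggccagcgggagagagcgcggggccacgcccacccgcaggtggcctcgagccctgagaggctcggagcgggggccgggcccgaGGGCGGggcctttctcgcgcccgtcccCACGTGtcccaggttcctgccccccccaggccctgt
Glul, chr1:153899679-153899928, plus strand: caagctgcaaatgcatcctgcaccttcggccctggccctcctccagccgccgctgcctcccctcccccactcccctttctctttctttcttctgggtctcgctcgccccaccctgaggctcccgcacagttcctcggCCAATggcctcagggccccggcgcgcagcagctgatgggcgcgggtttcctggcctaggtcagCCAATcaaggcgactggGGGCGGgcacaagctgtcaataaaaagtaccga
Otc, chrX:10252055-10252229, plus strand: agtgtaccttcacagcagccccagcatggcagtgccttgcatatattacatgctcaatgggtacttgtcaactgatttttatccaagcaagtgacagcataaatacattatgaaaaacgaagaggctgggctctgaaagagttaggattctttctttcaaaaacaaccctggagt
The windows differ in base composition, with 75.6% G and C for Ass1, 64.8% for Glul and 41.7% for Otc, beside a median of 52.4% over 32851 promoters. CACGTG, found in that of Ass1, is held by 6.02% of all promoters in this window, CCAAT, found at 2 places in that of Glul, by 33.8%, and GGGCGG, found in both, by 32.7%. TATAAA is held by 12.4%, TTGCNNAA by 9.56% and TGTTCT by 16.1% of all promoters, and none of the 6 is in the Otc window. The matches shown do not overlap each other. A match describes letters and not a bound site, and no binding was measured.

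Other genes of nitrogen metabolism were taken from 5 lists of 84 genes, all on the array. In females, 4 of the 84 passed 2-fold with AAI, all lower, which is 4.76% beside 4.46% of all genes. In males, 6 passed, 4 higher and 2 lower, which is 7.14% beside 8.09%. In these main values the lists as a whole were therefore close to the share over all genes. With the normexp background the shares were 3.57% beside 1.52% of all genes in females, and 5.95% beside 3.85% in males.

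Among 10 carriers and support genes of the cycle, the median log2 ratio was -0.10 in females and -0.01 in males. Slc25a15, the ornithine carrier of the inner mitochondrial membrane, had ratios of -0.20 and 0.24, and Car5a, the mitochondrial carbonic anhydrase that supplies bicarbonate to Cps1, -0.35 and 0.07. Slc25a13, the citrin that exports aspartate for Ass1 in liver, had 0.21 and -0.44, and its further probe gave -0.12 and -0.07, so that the direction in females turned with the probe. Slc25a12, the aspartate carrier of muscle and brain, was at 10.28 and 10.63 in corn oil- and AAI-treated females and at 10.09 and 11.13 in the males. Its male ratio of 1.04 was past 2-fold, was 0.58 as the mean of its probes, and ran from -0.24 to 1.04 over the Slc25a12 probes above background. The muscle markers, all 14 at least 2-fold higher in AAI-treated males, moved with this value, and their part was not tested.

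Among 14 genes of glutamine and ammonia handling, the median was -0.33 in females and -0.15 in males, and that of the females was -0.0615 with the mean of the probes and -0.61 when centred on hepatocyte markers. Glud1, glutamate dehydrogenase, was at 0.07 and -0.33, with 0.05 in males by another of its probes, and Oat, ornithine aminotransferase of pericentral cells, at -0.34 and 0.01. Slc38a3, the glutamine transporter of hepatocytes, was 13.07 and 13.69 in corn oil- and AAI-treated females and 13.39 and 14.01 in the males, a log2 ratio of 0.62 in each sex. Rhbg, an ammonia channel of pericentral hepatocytes, was lower in each, at -0.92 and -0.86. By their brightest probes, 1 of these 14 genes passed 2-fold in females, beside 4.46% of all genes, and 2 in males, beside 8.09%. The difference between the sexes was not tested. Slc1a4, a neutral amino acid exchanger, was 13.80 in corn oil- and 12.34 in AAI-treated females, a ratio of -1.46, and -0.48 in males. Slc1a5, the glutamine transporter of dividing and many extrahepatic cells, was 7.28 in corn oil- and 8.98 in AAI-treated males, a ratio of 1.70, and 0.29 in females. Slc38a5, a further glutamine transporter, was at -1.38 in males, on signals of 6.26 and 4.88, and at -0.53 with the normexp background.

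**Figure D3:**
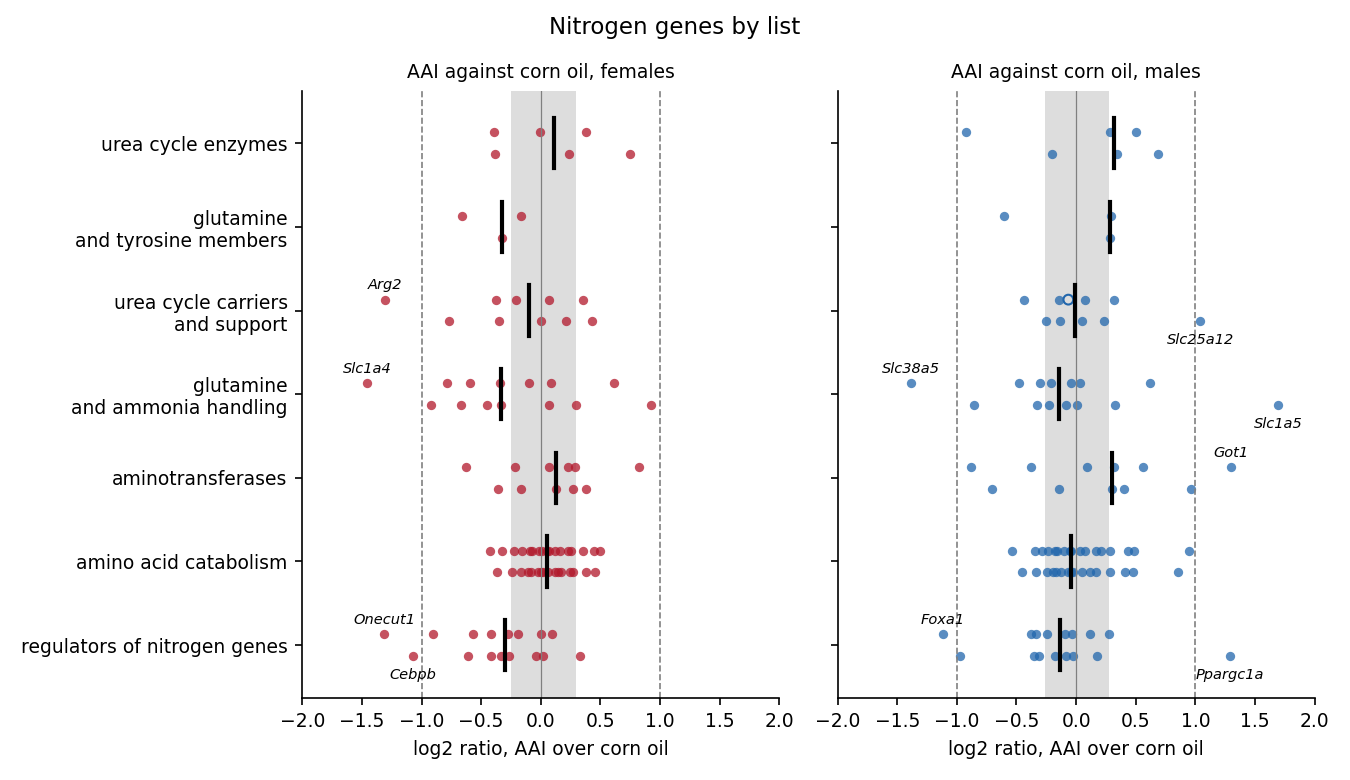
Log2 ratio of AAI over corn oil for the genes of the member lists and of 5 further lists of nitrogen genes, in females and in males. Each point is 1 gene by its brightest probe, the open circle is a bound for Arg2 in males, black bars are list medians, the grey band holds the middle of all genes between the quartiles, dashed lines mark 2-fold, and genes past it are named. Named points lie only below zero in females and on both sides in males, and the medians of aminotransferases (0.13) and amino acid catabolism (0.05) in females were -0.15 and -0.22 when centred on hepatocyte markers.

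Among 11 aminotransferases, the median was 0.13 in females and 0.30 in males, and that of the females was -0.15 when centred on hepatocyte markers. Got1, the cytosolic aspartate aminotransferase, was 15.05 in corn oil- and 14.43 in AAI-treated females, and 14.01 in corn oil- and 15.31 in AAI-treated males. It was past 2-fold in males only, with a log2 ratio of 1.30 there and -0.62 in females, and the difference between the sexes was not tested. Its 2 further probes gave 1.88 and 1.98 in males and -0.08 and 0.09 in females. The mitochondrial enzyme Got2 was at 0.82 in females and 0.40 in males, and the alanine aminotransferase gene Gpt at 0.38 and 0.32. All 14 skeletal muscle, 6 of 10 fat and 9 of 12 adrenal markers were at least 2-fold higher in the same male array as Got1. At least 2-fold lower there were 2 fat markers and 1 adrenal marker, and the part of these markers was not tested.

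By their brightest probes, none of 33 genes of amino acid catabolism passed 2-fold with AAI in either sex. The medians were 0.05 in females (-0.22 when centred on hepatocyte markers) and -0.04 in males. The ranges were -0.43 to 0.50 in females and -0.54 to 0.95 in males. A further Gldc probe gave -1.05 in females, where the brightest gave -0.24. The highest gene in males was Sds, serine dehydratase of periportal cells, with 13.40 in corn oil- and 14.35 in AAI-treated males, a ratio of 0.95, and 0.26 by its further probe. Prodh, proline dehydrogenase, was at 0.86, and at 0.32 by its further probe. Between the corn oil-treated sexes, none of the 33 was at least 2-fold higher in males by its brightest probe, beside 3.83% of all genes. At least 2-fold lower were 3, beside 1.86%. These were Acmsd of the kynurenine pathway at -2.12, Hpd of tyrosine breakdown at -1.28 and Afmid, the formamidase of the kynurenine pathway, at -1.02. Over the 5 lists, 8 of 84 genes passed 2-fold between the sexes, 9.52% beside 5.69% of all genes, and 6 of them were lower and 2 higher in males. The others lower were Ppargc1a at -1.63, Arg2 at -1.20 and Got1 at -1.04, and those higher were Onecut1 at 1.65 and Asns. Asns, asparagine synthetase, was 6.77 and 7.69 in corn oil- and AAI-treated females and 10.16 and 10.19 in the males, a ratio of 3.39 between the corn oil-treated sexes and 0.03 with AAI in males.

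Among 16 regulators of nitrogen genes, the median was -0.30 in females and -0.14 in males. Cebpb, a factor of the acute phase and of gluconeogenesis, was 13.78 in corn oil- and 12.71 in AAI-treated females, a log2 ratio of -1.07, and -0.18 in males. Onecut1, a hepatocyte nuclear factor, was lower with AAI in each sex, at -1.31 in females and -0.97 in males, with -0.49 and -0.62 by its further probe. Foxa1, a pioneer factor of liver enhancers, was at -0.61 and -1.11. Ppargc1a, the coactivator of the fasting response, was 9.96 and 9.06 in corn oil- and AAI-treated females and 8.33 and 9.61 in the males, a ratio of -0.90 in females and 1.29 in males, and its further probe gave -1.23 and 1.75. Muscle and brown fat also express this gene, and the part of their markers in the male value was not tested. Nr3c1, the glucocorticoid receptor, was at 0.01 and -0.24, with 0.12 in males by its further probe, and Cebpa at 0.33 and 0.12.

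**Figure D4:**
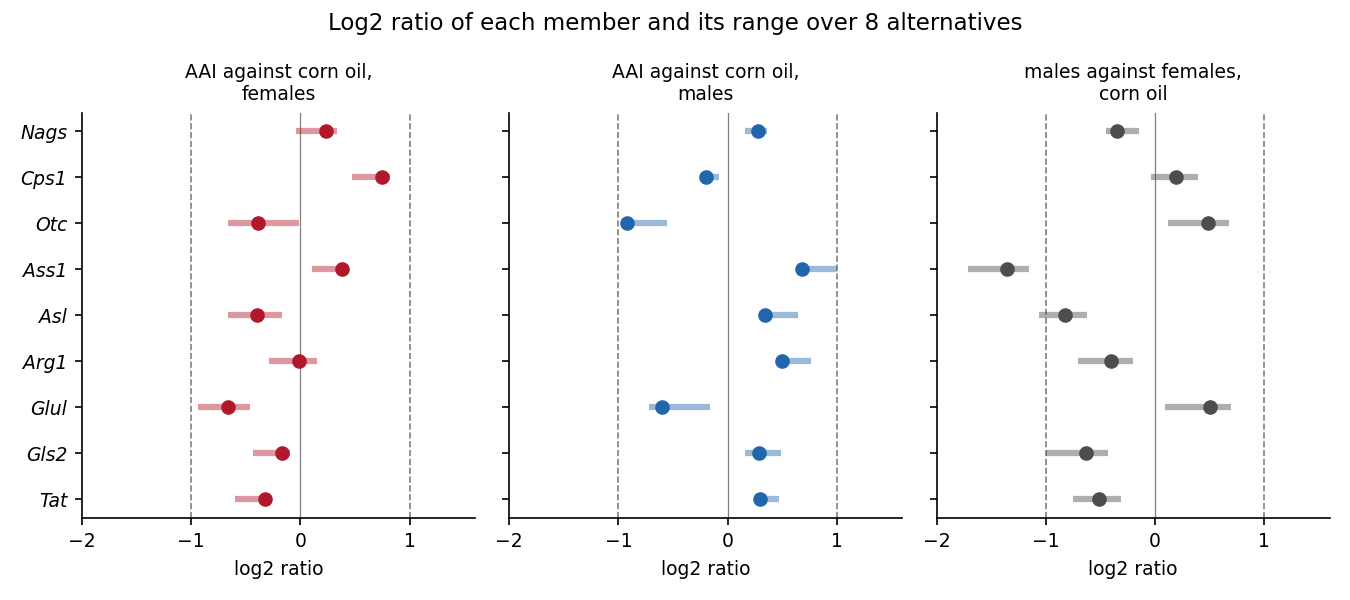
Log2 ratio of each member by its brightest probe in the 3 comparisons (points), with the lowest and highest value over 8 alternative ways of processing (bars), including the mean of all probes of the gene. Dashed lines mark 2-fold. The bars of Nags and Arg1 in females and of Cps1 between the sexes cross zero. When the probes of the gene are averaged, those of Otc and Gls2 in females come near it, at -0.01 and -0.09. So do Glul in males at -0.16, and Glul and Otc between the sexes at 0.09 and 0.12. Under other alternatives, Cps1 in males at -0.08 and Ass1 in females at 0.11 are among those near it.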

How the data were processed

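Per the labels, spots were scanned and read with Feature Extraction 10.5.1.1, and the authors deposited linear intensity values per spot (mean, background, background-subtracted and processed signal) and a table of quantile normalized intensity per probe. Here, log2 processed intensity was taken without control and outlier spots, spots of a probe were averaged, and the 56495 probes that kept a value on each array were quantile normalized (Python 3.11.15, numpy 2.4.6). The 2-fold threshold was applied to genes marked well above background on 1 or both of the arrays compared, with a bound in place of a dim value. As groups were single arrays, there are no p-values. Nothing was done about the missing trend correction in the main values. Alternatives were 75th percentile scaling, normexp background (limma 3.58.1 in R 4.3.3, offset 50), no trend correction, the authors' normalized values, no normalization, centring on hepatocyte markers, the mean of a gene's probes, no filter on dim probes, and a 1.5-fold threshold. Scripts were tested on simulated data. Named genes were all members, genes of the 5 lists past 2-fold (at most 4 a list and sex), the steps next to a member (1 of these is not reported here) and the nearest patterns. Rhbg, Asns, Got2, Gpt, Sds, Prodh, Gldc, Acmsd, Hpd, Afmid, Nr3c1 and Cebpa were named after their values were seen. The members and lists were chosen with earlier results of these data known. The number of arrays limits the precision.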

Additional observations from a re-analysis of the deposited data

Results flagged for a closer look

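Asl and Tat were singled out because the single array pairs of the sexes moved in opposite directions with AAI, each beyond the SD between probes of a gene. The log2 ratio of Asl was -0.39 in females and 0.35 in males, a difference of 0.74, and that of Tat was -0.33 and 0.30, a difference of 0.62. With 1 array per group and different doses in the sexes these differences were not tested. For Asl, the further probe gave 0.05 in females and 0.94 in males, and the mean of the probes -0.17, within that SD, and 0.65.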

How the results depend on the processing

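No paired analysis was possible because each group is 1 array and the replicate number is that of the only array, and no array could be left out. Counts of members past 2-fold were 0 in females and 0 in males under all 8 alternatives of scaling, background, probe choice and filter, and 1 between the corn oil-treated sexes except for 2 with 75th percentile scaling, where Asl was at -1.06. With the 1.5-fold threshold they were 2, 3 and 3. Of the 84 genes of 5 lists, 15 in females (17.9%, beside 17.8% of all genes) and 14 in males (16.7%, beside 20.9%) passed 1.5-fold, and 8 in females (9.52%, beside 7.35%) passed 2-fold when centred on hepatocyte markers. This centring moved the median over all genes by -0.27 in females and 0.20 between the sexes, and no normalization moved it by 0.15 in females, -0.13 in males and 0.14 between the sexes. With the centring, female medians were -0.16 for the cycle enzymes, -0.37 for carriers and support, -0.61 for glutamine and ammonia handling, -0.15 for aminotransferases, -0.22 for amino acid catabolism, -0.58 for regulators, -0.55 for periportal and -0.37 for pericentral genes. With the mean of the probes, glutamine and ammonia handling was at -0.0615 in females. The cause was not tested beyond this shift. Of the other named genes past 2-fold, none changed direction, and 2 of 4 in females, 4 of 8 in males and 6 of 9 between the sexes stayed past it under all 8 alternatives.

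Over all genes, the share of lower among 2-fold differences in females was 69.3%, and 54.4% with 75th percentile scaling, 35.9% without normalization, 91.2% with the centring, 59.1% with the mean of the probes and 57.1% without the filter. In males it was 56.7%, and 67.1% without normalization. Between the sexes it was 32.7%, and 20.5% and 15.9% without normalization and with the centring. With the normexp background only 139 genes were higher and 341 lower in females, and 539 and 637 in males, and 471 and 222 between the sexes, and without the filter 1078 and 1433, 1793 and 2240, and 1823 and 1253.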

Other observations

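Genes of the zones in which the members act were measured on the same arrays. Among 15 periportal hepatocyte genes, the median log2 ratio with AAI was -0.28 in females and -0.17 in males. By the brightest probes, none passed 2-fold in females, beside 4.46% of all genes, while a further Ctsc probe gave -1.41. In males, 2 passed, both lower, beside 4.59% of all genes lower. Cdh1, the cadherin of periportal hepatocytes, had 9.48 in corn oil- and 7.79 in AAI-treated males, a ratio of -1.69, with -0.01 in females. Etnppl, an ethanolamine phosphate lyase, was at -1.08 in males and -0.28 in females, and at -0.41 in males as the mean of its probes. Its further probes gave 0.37 and -0.50 in males and -0.58 and 0.20 in females, so that the direction turned with the probe. Between the corn oil-treated sexes, Aldh1b1, a mitochondrial aldehyde dehydrogenase, was at -2.26, lower in males. It was the only 1 of the 15 past 2-fold by the brightest probe, beside 5.69% of all genes. Among 20 pericentral genes the medians were -0.10 and -0.04. By the brightest probes, none passed 2-fold in either AAI comparison or between the corn oil-treated sexes. Of all genes 4.46%, 8.09% and 5.69% did, so that little can be read from 0 of 20. Further probes of Lgr5 and Slc1a2 gave 1.22 and 1.02 in females, where their brightest probes gave 0.67 and -0.45. Cyp2e1, a pericentral cytochrome P450 gene, was at 0.03 and 0.06, while Rhbg was at -0.92 and -0.86. Cdh1, Etnppl, Aldh1b1, Ctsc, Lgr5, Slc1a2 and Cyp2e1 were named after their values were seen. Epithelial cells of the bile ducts also express Cdh1, and their part was not tested.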
